A study of Mus musculus with 7 samples.

Results

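The ribosome biogenesis and nucleolar genes described here are 38 genes whose products build ribosomes in the nucleolus. They were chosen by name and known role, but with earlier results of these data known, so shares and medians over the list are descriptions only. They comprise nucleolar scaffold proteins, subunits of RNA polymerase I and proteins of the box C/D and H/ACA small nucleolar ribonucleoproteins. Assembly factors of the small and the large ribosomal subunit and further nucleolar RNA helicases and processing factors complete the list. Of the 38, 35 had a probe set that named them alone, and all 35 passed the filter on dim genes that left 9243 genes in all. The arrays carried no probe set that named Npm3 or Dkc1 in the annotation used, and Mrto4 appeared only on a probe set shared with its pseudogenes. These 3 genes are not analysed here.

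Ribosomes are made in the nucleolus, where RNA polymerase I transcribes the ribosomal RNA precursor. Box C/D particles guide ribose methylation and H/ACA particles guide pseudouridylation of that RNA, while many assembly factors fold and cut it and load ribosomal proteins. Growing and dividing cells need many ribosomes, and the transcription factor Myc is well known to raise the expression of many of these genes.

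Gliomas had been raised in mice by injecting RCAS-PDGFB-GFP into the brain on postnatal days 1 to 3, in animals that express the receptor tv-A from the Nestin promoter, so that the virus enters Nestin-expressing cells and gives them a green marker and PDGFB, a glial growth factor. The groups were 2 arrays from tumours heterozygous for Ptprd, a receptor-type tyrosine phosphatase gene, 3 arrays from Ptprd null tumours and 2 arrays from Ptprd wild-type tumours. Every group, wild type included, was p16-/-, on a background that mixed C57/BL6 with FVB/N, and tumours were collected at symptoms or at 12 weeks. Living green cells were sorted, and the labels do not say whether an array holds the tumour of a single mouse, so the p-values cover only array-to-array spread.

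Correlations across probe sets ran from 0.976 to 0.985 between heterozygous and wild-type arrays, and from 0.990 to 0.995 between null and wild-type arrays. Ptprd had log2 values of 9.42 and 9.57 in heterozygous, 9.61, 8.95 and 9.93 in null and 10.86 and 10.89 in wild-type cells, so its probe set was no lower in null than in heterozygous cells. The glioma markers Olig2 and Pdgfra lay between 10.78 and 13.74 on every array. Heterozygous replicate 1 and null replicate 1 carried both Xist and Y-linked transcripts. Medians over the list and counts of calls are also given without these 2 arrays, while the results of most single genes are given only with them. The values were set to a common distribution across arrays, so a rise of all transcripts per cell could not be seen. In sorted bulk cells, a different share of a cell type and a different amount of RNA per cell cannot be told apart.

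Most of the ribosome biogenesis genes were higher in heterozygous than in wild-type cells, with a median log2 difference of 0.35, and null cells lay close to wild-type cells. In heterozygous minus wild type, Nhp2, Nop10 and Ebna1bp2 rose, 0 of the 35 fell and 32 did not pass the test (limma, Benjamini-Hochberg adjusted p under 0.05 over all genes). The share called was 8.57% of the 35 genes, against 10.1% of all 9243 genes. The share that rose was also 8.57%, against 4.2% of all genes, and 5.95% of all genes fell. The count of calls is therefore near the background, and the list differs from it mainly in direction. Of the 35, 32 had a difference above 0, or 91.4%, against 44.8% of all genes, and the median over all genes was -0.04. The differences ran from -0.20 (Polr1b) to 1.12 (Nhp2), and 25 lay in the top 25% of all genes. A rise above 1.5-fold was seen in 8, the lowest of which, Ddx21, ranked only 730th by rise among all 9243 genes. At an unadjusted p under 0.05, 16 were higher and 0 lower, against 12.7% of all genes higher and 17.2% lower. In 24 genes, or 68.6%, both heterozygous arrays lay above both wild-type arrays, as they did in 26.2% of all genes, and in 1 gene (Polr1b) both lay below, against 35.1% of all genes. These counts do not come from independent genes, since most of the 35 shared their highest and their lowest array. Without heterozygous replicate 1 and null replicate 1 the median was 0.26, with 0 of the 35 and 0 of all 9243 genes called.

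**Figure D1:**
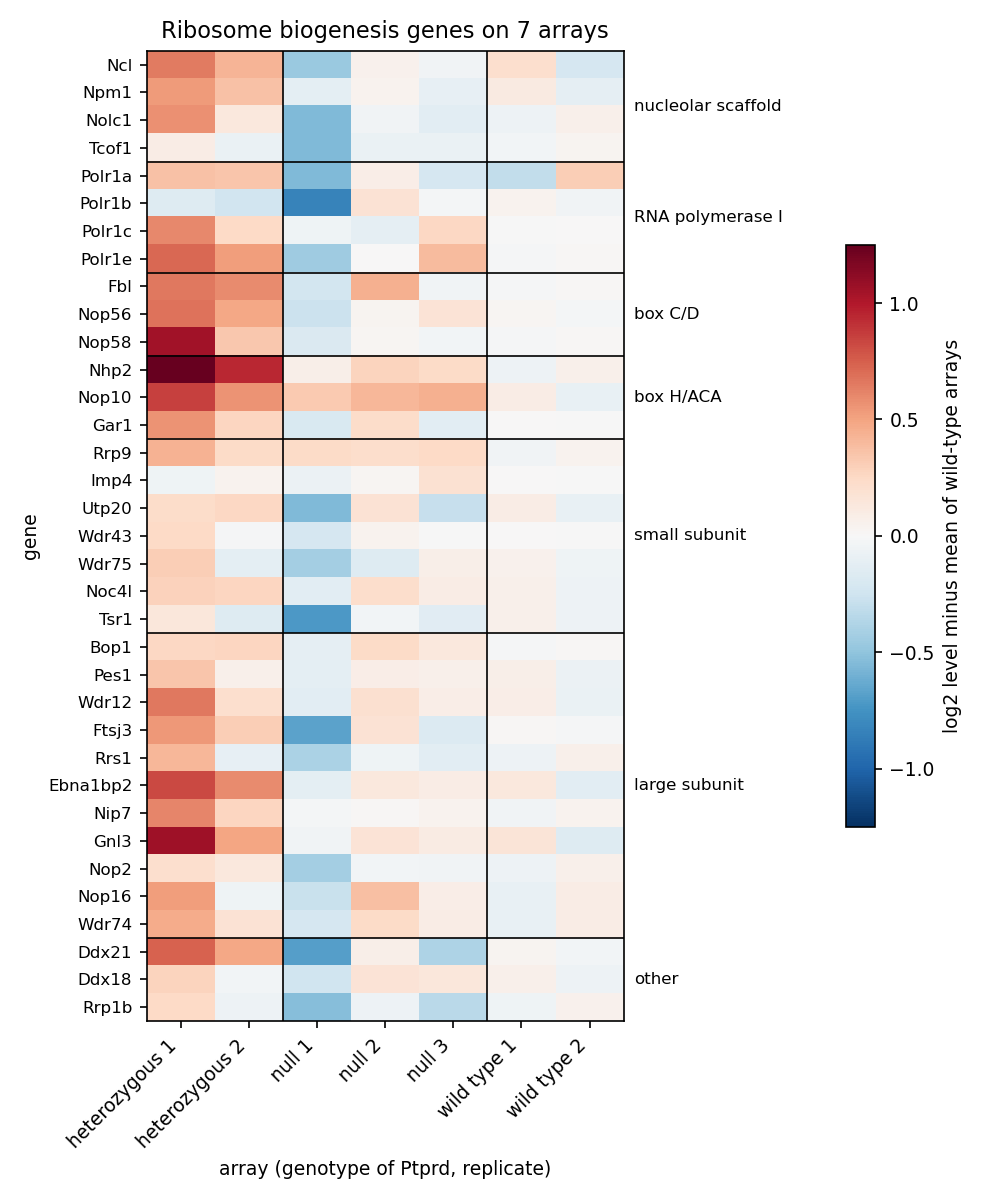
Log2 expression of the 35 ribosome biogenesis genes on each array, drawn as a colour for the difference from the wild-type mean of the same gene (red higher, blue lower), with 1 row per gene grouped by role and 1 column per array. Heterozygous replicate 1 was the highest array for 31 genes and null replicate 1 the lowest for 28.

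The H/ACA proteins held 2 of the 3 genes that rose. This particle carries Nhp2, Nop10 and Gar1 around the pseudouridine synthase Dkc1, in ribosomal RNA modification and in telomerase. Nhp2 had log2 values of 10.91 and 10.57 in heterozygous, 9.70, 9.90 and 9.86 in null and 9.56 and 9.69 in wild-type cells. Both heterozygous arrays stood above all 5 other arrays by more than any of those 5 differed among themselves. Nhp2 rose 2.17-fold in heterozygous against wild-type cells (log2 difference 1.12 ± 0.15 SE, adjusted p = 0.00975), and a further probe set of the gene gave 1.18. Nop10 had values of 11.18 and 10.89 in heterozygous, 10.65, 10.74 and 10.78 in null and 10.42 and 10.24 in wild-type cells. Its heterozygous arrays were again the highest, and its null arrays lay between them and the wild-type arrays without overlap. Nop10 rose 1.63-fold in heterozygous against wild-type cells (0.71 ± 0.14 SE, adjusted p = 0.0256), and its other probe set gave 0.54. Gar1 had values of 9.34 and 9.04 in heterozygous, 8.58, 9.01 and 8.64 in null and 8.78 and 8.77 in wild-type cells. Null replicate 2 came close to the lower heterozygous array, and the heterozygous difference of 0.42 ± 0.17 SE did not pass the test (adjusted p = 0.16).

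The box C/D core proteins were also highest on the heterozygous arrays, their null and wild-type arrays overlapped, and 0 of the 3 passed the test. Fbl, the fibrillarin methyltransferase, had log2 values of 10.62 and 10.55 in heterozygous, 9.73, 10.40 and 9.91 in null and 9.95 and 9.97 in wild-type cells. Nop56, a scaffold of the particle, had 10.05 and 9.86 in heterozygous, 9.10, 9.41 and 9.54 in null and 9.39 and 9.35 in wild-type cells. Nop58, its partner scaffold, had 10.80 and 10.09 in heterozygous, 9.58, 9.78 and 9.72 in null and 9.74 and 9.76 in wild-type cells. In all 3 genes both heterozygous arrays exceeded every other array, and for Nop58 the heterozygous arrays differed from each other by more than the lower one did from wild type. The heterozygous minus wild-type differences were 0.63 ± 0.21 for Fbl, 0.58 ± 0.16 for Nop56 and 0.69 ± 0.22 for Nop58 (SE), with adjusted p = 0.1, 0.0653 and 0.0875.

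Among the nucleolar scaffold proteins, 0 of 4 passed the test in heterozygous against wild-type cells, with 2 at an unadjusted p under 0.05. Npm1, the nucleophosmin that organises the outer nucleolus, had log2 values of 12.47 and 12.31 in heterozygous, 11.82, 11.98 and 11.84 in null and 12.06 and 11.83 in wild-type cells. Ncl, the nucleolin that binds ribosomal RNA precursor, had 11.87 and 11.64 in heterozygous, 10.76, 11.27 and 11.17 in null and 11.42 and 11.01 in wild-type cells. Nolc1, a chaperone of small nucleolar ribonucleoproteins, had 8.65 and 8.21 in heterozygous, 7.53, 8.04 and 7.94 in null and 8.01 and 8.14 in wild-type cells. The heterozygous arrays were the highest for all 3 genes, narrowly so in Nolc1. Their differences from wild type were 0.45 ± 0.13, 0.54 ± 0.21 and 0.35 ± 0.21 (SE), with adjusted p = 0.0703, 0.146 and 0.305. Tcof1, the treacle scaffold of RNA polymerase I transcription, had a difference of 0.00 on its brightest probe set and of 0.24 and 0.35 on its others.

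Of the 4 RNA polymerase I subunits, 0 passed the test and their differences had both signs. Polr1e, a subunit of the elongating enzyme, had log2 values of 7.84 and 7.64 in heterozygous, 6.67, 7.12 and 7.52 in null and 7.10 and 7.13 in wild-type cells. Polr1c, shared with RNA polymerase III, had 9.54 and 9.19 in heterozygous, 8.89, 8.83 and 9.20 in null and 8.93 and 8.94 in wild-type cells. Polr1a, the largest subunit, had 7.33 and 7.31 in heterozygous, 6.41, 7.05 and 6.76 in null and 6.66 and 7.27 in wild-type cells. Null replicate 3 reached the lower heterozygous array for Polr1c, and wild-type replicate 2 lay just under both heterozygous arrays for Polr1a. The differences from wild type were 0.62 ± 0.25, 0.43 ± 0.17 and 0.36 ± 0.25 (SE), with adjusted p = 0.149, 0.148 and 0.382. Polr1b, the other large catalytic subunit, had a difference of -0.20 (adjusted p = 0.701).

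The large-subunit assembly factors were all above 0 in heterozygous minus wild type, with a median of 0.32, and 1 of 11 rose. Ebna1bp2, whose yeast counterpart acts in early large-subunit assembly, had log2 values of 9.90 and 9.66 in heterozygous, 8.95, 9.20 and 9.17 in null and 9.20 and 8.94 in wild-type cells. It rose 1.64-fold in heterozygous against wild-type cells (0.71 ± 0.15 SE, adjusted p = 0.0345), while its other, dimmer probe set gave 0.20. Gnl3, the nucleolar GTP-binding protein nucleostemin, had 9.94 and 9.38 in heterozygous, 8.83, 9.04 and 8.98 in null and 9.04 and 8.71 in wild-type cells. Its heterozygous arrays exceeded the others but lay far apart, and its difference of 0.78 ± 0.21 SE did not pass the test (adjusted p = 0.0567). Nip7, which acts in precursor processing, had 9.59 and 9.25 in heterozygous, 8.95, 8.99 and 9.02 in null and 8.93 and 9.02 in wild-type cells. The null and wild-type arrays of Nip7 lay within 0.1 of each other, and its heterozygous difference was 0.44 ± 0.13 SE (adjusted p = 0.0799). The remaining differences ran from 0.16 for Rrs1 to 0.43 for Wdr12. In between lay Nop2 at 0.17, Pes1 at 0.20, Nop16 at 0.24, Bop1 at 0.26, Wdr74 at 0.32 and Ftsj3 at 0.43. Pes1, Bop1 and Wdr12 form a complex needed for large-subunit maturation, and only Bop1 and Wdr12 of these had groups that did not overlap.

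The small-subunit factors had a median of 0.12 in heterozygous minus wild type and 0 of 7 called. Rrp9, a protein of the box C/D particle that guides small-subunit cleavages, had log2 values of 7.56 and 7.36 in heterozygous, 7.36, 7.35 and 7.38 in null and 7.09 and 7.17 in wild-type cells. Its null arrays lay at the level of the lower heterozygous array, and all 5 arrays with a lost Ptprd allele lay above wild type. Noc4l, whose yeast counterpart acts in small-subunit assembly and export, had 7.57 and 7.56 in heterozygous, 7.15, 7.51 and 7.38 in null and 7.35 and 7.22 in wild-type cells. Utp20, a component of the small-subunit processome, had 8.25 and 8.28 in heterozygous, 7.47, 8.20 and 7.73 in null and 8.11 and 7.93 in wild-type cells. Null replicate 2 lay close to the heterozygous arrays for both genes. The differences from wild type were 0.33 ± 0.11, 0.28 ± 0.14 and 0.24 ± 0.23 (SE), with adjusted p = 0.0964, 0.224 and 0.511. On their brightest probe sets, Wdr43 at 0.12, Wdr75 at 0.09, Imp4 at -0.01 and Tsr1 at -0.01 were nearest to no difference. Other probe sets gave 0.54 for Wdr43, 0.46 and 0.55 for Noc4l, -0.06 for Wdr75 and -0.14 for Imp4.

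The other nucleolar factors were split. Ddx21, an RNA helicase that couples RNA polymerase I transcription to processing, had log2 values of 8.98 and 8.72 in heterozygous, 7.55, 8.32 and 7.86 in null and 8.27 and 8.21 in wild-type cells. Ddx18, a helicase whose yeast counterpart acts in large-subunit assembly, had 9.09 and 8.78 in heterozygous, 8.57, 8.99 and 8.95 in null and 8.88 and 8.75 in wild-type cells. Rrp1b, a nucleolar processing factor, had 7.77 and 7.46 in heterozygous, 6.99, 7.46 and 7.18 in null and 7.47 and 7.57 in wild-type cells. Heterozygous and wild-type arrays overlapped for Ddx18 and Rrp1b and not for Ddx21. The differences from wild type were 0.61 ± 0.24, 0.12 ± 0.18 and 0.10 ± 0.18 (SE), with adjusted p = 0.139, 0.703 and 0.77. The other probe sets of Rrp1b gave 0.47 and 0.55, larger than its brightest.

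**Figure D2:**
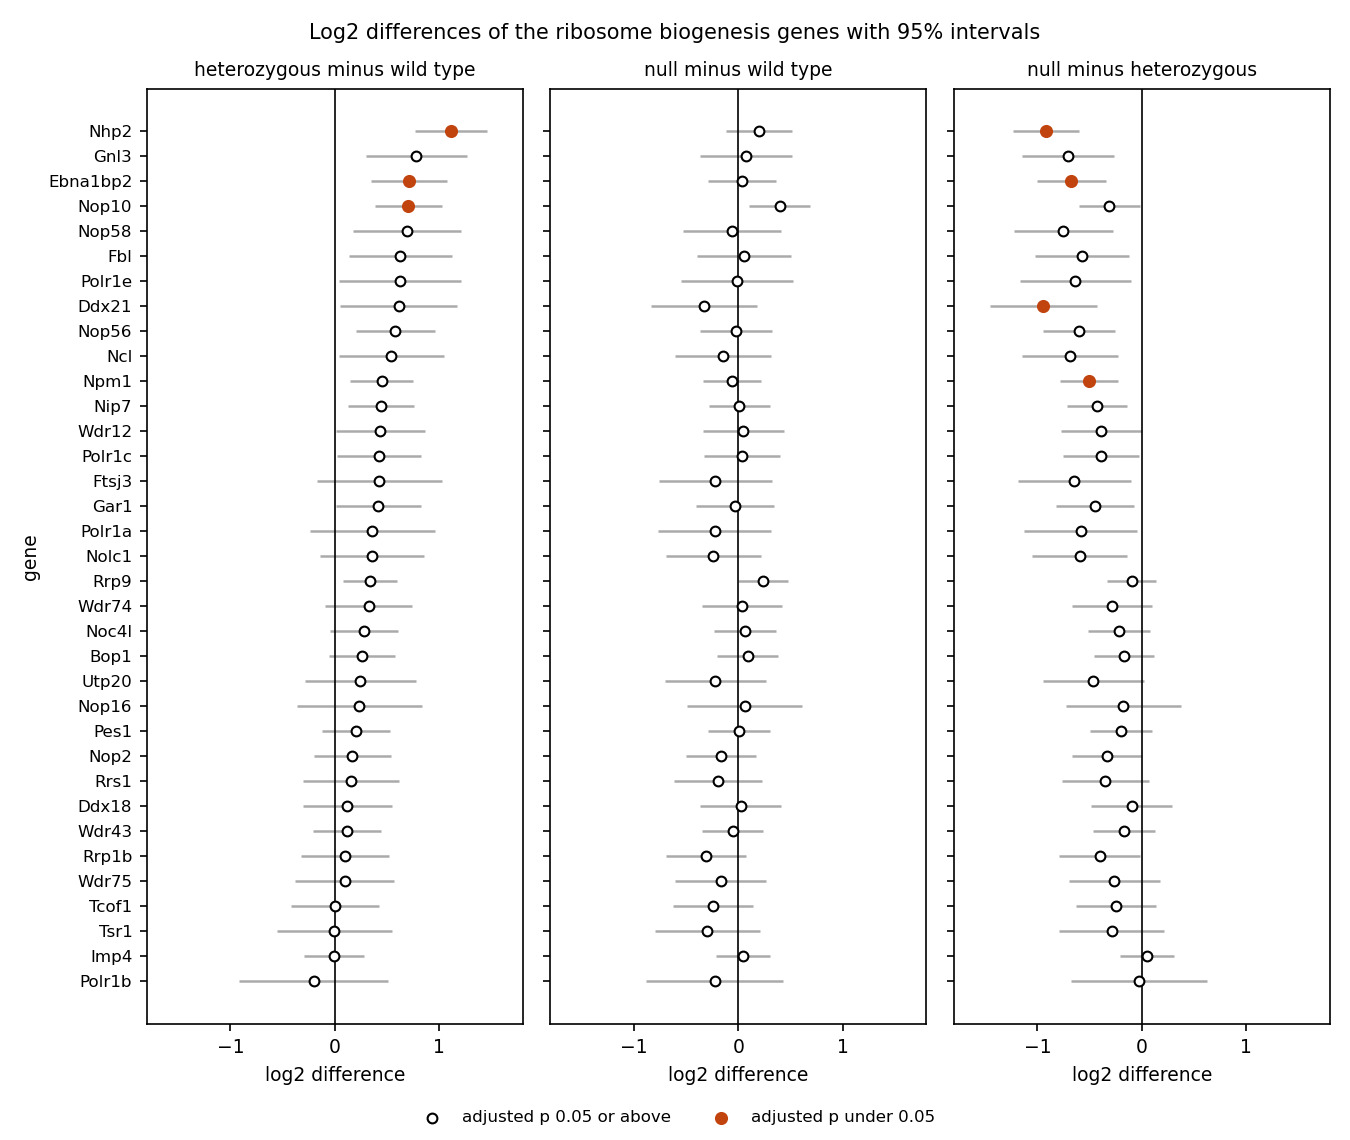
Log2 differences (x axis) of the 35 ribosome biogenesis genes (rows) in heterozygous minus wild type, null minus wild type and null minus heterozygous, with 95% intervals and filled points for adjusted p under 0.05. The points lie mostly right of 0 in the left panel (median 0.35), around 0 in the middle panel (median -0.02) and left of 0 in the right panel (median -0.39).

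Over the list as a whole, null cells lay near wild-type cells, with a median log2 difference of -0.02. In null minus wild type, 0 of the 35 genes passed the test, as did 0% of all genes, with limma. At an unadjusted p under 0.05, 1 of the 35 was called, Nop10, against 5.14% of all genes. Nop10 had a log2 difference of 0.39 (unadjusted p = 0.0149, adjusted p = 0.882). The genes of next smallest p were Rrp9 at 0.24 (unadjusted p = 0.0506) and Rrp1b at -0.31 (unadjusted p = 0.0998). Of the 35, 16 lay above 0, or 45.7%, against 49.8% of all genes. The median over all genes was -0.00, and the 35 genes ran from -0.33 for Ddx21 to 0.39 for Nop10. Groups did not overlap in 3 genes that were higher and 2 that were lower, against 10.7% and 11% of all genes. The median without null replicate 1 was 0.07.

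In null minus heterozygous, 4 of the 35 fell, 0 rose and 31 did not pass the test. The share called was 11.4%, all lower, against 8.96% of all genes in either direction and 3.96% lower. Nhp2 was 1.89-fold lower in null than in heterozygous cells (log2 difference -0.92 ± 0.13 SE, adjusted p = 0.015). Ddx21 was 1.92-fold lower (-0.94 ± 0.22 SE, adjusted p = 0.0434), and its other probe set gave -0.89. Ebna1bp2 was 1.6-fold lower (-0.68 ± 0.14 SE, adjusted p = 0.0349), while its dimmer probe set gave 0.01. Npm1 was 1.42-fold lower (-0.51 ± 0.12 SE, adjusted p = 0.0448), and its other probe set gave -0.76. Next came Nop56 with a difference of -0.60 (adjusted p = 0.0502). Imp4, a small-subunit factor, was the 1 gene above 0, at 0.05, whereas 57% of all genes lay above 0. The median was -0.39, against 0.04 over all genes, and 31 of the 35 lay in the lowest 25% of all genes. In 21 genes all null arrays lay below both heterozygous arrays, a pattern seen in 17.9% of all genes. At an unadjusted p under 0.05, 18 were lower, against 12.1% of all genes. This comparison and heterozygous minus wild type share the 2 heterozygous arrays, so the pair of results is not independent. The median without heterozygous replicate 1 and null replicate 1 was -0.17, with 0 of the 35 and 0 of all genes called.

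With heterozygous and null averaged and set against wild type, 0 of the 35 passed the test by limma, against 0.325% of all genes. At an unadjusted p under 0.05, 5 were higher, against 8.13% of all genes. The smallest adjusted p values were 0.0799 for Nhp2, with a log2 difference of 0.66, and 0.0857 for Nop10, with 0.55. The median was 0.17, against -0.02 over all genes.

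Arrays within a group also differed. Relative to the wild-type mean, the mean of the 35 genes stood at 0.49 and 0.23 on the heterozygous, at -0.28, 0.11 and 0.02 on the null and at 0.01 and -0.01 on the wild-type arrays. Heterozygous replicate 1 lay above heterozygous replicate 2 in 32 genes, with a median gap of 0.26 on the log2 scale, whereas it did so in 43% of all genes. Null replicate 1 lay below both other null arrays in 33 genes, or 94.3%, against 37.8% of all genes. Both heterozygous arrays nevertheless exceeded all 5 others in 21 of the 35, against 15.3% of all genes. Leaving out 1 array at a time, the median of heterozygous minus wild type ran from 0.26 to 0.52, while the number called ran from 0 to 6. It was 0 without either wild-type array, 1 without heterozygous replicate 1, and 6 without heterozygous replicate 2. For null minus heterozygous the median ran from -0.57 to -0.25 and the number called ran from 0, without heterozygous replicate 1, to 6, without null replicate 2. It was 1 without either wild-type array and without null replicate 1 or 3. Over 18 alternative settings, heterozygous minus wild type kept its sign in all for Nhp2, Nop10 and Ebna1bp2, which were called in 12, 9 and 8 of them. Null minus heterozygous also kept its sign in all 18 for Nhp2, Ddx21 and Ebna1bp2, which were called in 14, 7 and 6, and in all 17 that could be run for Npm1, which was called in 4.

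Promoters of the genes called are shown so that the letters they share, or do not share, can be seen. RefSeq promoters of the build GRCm38.p6 were at hand for 33 of the 38 genes, and the called gene Npm1 was not among them. The 250 bases before the start are printed 5′ to 3′ for the 4 other called genes. Capitals mark CGGAAGT or its complement ACTTCCG, a motif of the kind that ETS-family factors bind, which was chosen after these promoters had been seen. It stood 22 bases before the start in Nhp2 and 48 and 24 bases before it in Ddx21, and was not among these 250 letters in Nop10 or Ebna1bp2.
Nhp2, chr11:51619523-51619772, plus strand: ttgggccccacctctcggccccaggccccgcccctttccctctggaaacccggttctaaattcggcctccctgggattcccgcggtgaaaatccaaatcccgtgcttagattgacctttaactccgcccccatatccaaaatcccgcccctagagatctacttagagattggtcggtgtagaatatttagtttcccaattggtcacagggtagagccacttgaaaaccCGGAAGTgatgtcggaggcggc
Nop10, chr2:112261676-112261925, plus strand: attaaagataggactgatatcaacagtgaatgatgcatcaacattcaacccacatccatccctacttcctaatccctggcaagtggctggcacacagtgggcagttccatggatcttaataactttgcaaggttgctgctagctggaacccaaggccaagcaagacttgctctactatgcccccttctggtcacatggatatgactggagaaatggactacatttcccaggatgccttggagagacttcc
Ebna1bp2, chr4:118620549-118620798, plus strand: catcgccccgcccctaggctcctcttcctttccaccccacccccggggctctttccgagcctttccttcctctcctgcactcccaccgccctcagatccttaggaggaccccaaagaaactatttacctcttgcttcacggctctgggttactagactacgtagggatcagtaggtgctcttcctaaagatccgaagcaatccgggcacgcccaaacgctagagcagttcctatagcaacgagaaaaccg
Ddx21, chr10:62602299-62602548, minus strand: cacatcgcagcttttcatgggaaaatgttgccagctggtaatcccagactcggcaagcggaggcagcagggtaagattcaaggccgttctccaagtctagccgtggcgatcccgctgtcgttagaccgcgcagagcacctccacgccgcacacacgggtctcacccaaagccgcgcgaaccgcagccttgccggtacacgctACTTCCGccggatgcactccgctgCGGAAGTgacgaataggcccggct

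In the window from 250 bases before to 50 bases after the start, on both strands, CGGAAGT or ACTTCCG occurred in 13 of the 33 genes, or 39.4%. They included Nhp2, Nop10, Ebna1bp2 and Ddx21. The share was 43.8% among other ribosome biogenesis genes, 34.5% among cytosolic ribosomal protein genes, 14.7% among the tested genes in the table and 7.2% among all its genes. The motif was picked with these promoters in view, so its share is a description only.

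The E-box CACGTG, the letters that Myc with its partner Max binds and which read the same on both strands, occurred in 6 of the 33 genes. This was 18.2% (exact 95% interval 6.98% to 35.5%), against 12% of tested genes and 8.09% of all genes in the table. Within the 250 bases before the start alone the share was 6.06%, against 10.1% of tested genes, so the order turned with the window. Counting CACGCG or CGCGTG as well as CACGTG in the full window, it was 42.4%, against 30% of tested genes. None of Nhp2, Nop10, Ebna1bp2 and Ddx21 held CACGTG in the window. The 6 sites are printed with the E-box in capitals, to show where they lie. Their first bases stood 121 and 60 bases before the start in Imp4 and Nop2, and at positions 3, 25, 38 and 18 in Pes1, Tsr1, Utp20 and Wdr43, counted from the start as 1.
Imp4, chr1:34439696-34439725, plus strand: acggtcttagacCACGTGacatcccaaatc
Nop2, chr6:125131811-125131840, plus strand: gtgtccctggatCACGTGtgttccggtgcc
Pes1, chr11:3963965-3963994, plus strand: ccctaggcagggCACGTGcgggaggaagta
Tsr1, chr11:74898092-74898121, plus strand: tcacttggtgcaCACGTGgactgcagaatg
Utp20, chr10:88826765-88826789, minus strand: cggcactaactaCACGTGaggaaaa
Wdr43, chr17:71616220-71616249, plus strand: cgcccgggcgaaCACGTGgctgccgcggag

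A match of letters shows neither binding nor its absence.

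Myc itself was higher in heterozygous cells. Myc had log2 values of 9.61 and 9.26 in heterozygous, 7.76, 7.80 and 7.77 in null and 7.86 and 7.91 in wild-type cells. It rose by 1.55 in heterozygous against wild type (adjusted p = 0.00356) and was lower by a difference of -1.66 in null against heterozygous (adjusted p = 0.00259). Mycn, its neural relative, had 7.15 and 7.07 in heterozygous, 8.40, 8.07 and 8.34 in null and 8.16 and 8.64 in wild-type cells. It fell by 1.29 in heterozygous against wild type (adjusted p = 0.012), and its null minus heterozygous difference was 1.16 (adjusted p = 0.015). The heterozygous arrays thus stood apart for both genes in opposite directions. Of the 10 genes of the Myc network list, Myc rose, Mycn fell and 8 did not pass the test, among them the Myc antagonist Mga at -0.98 (adjusted p = 0.0807). The part of Myc in the ribosome biogenesis values was not tested.

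**Figure D3:**
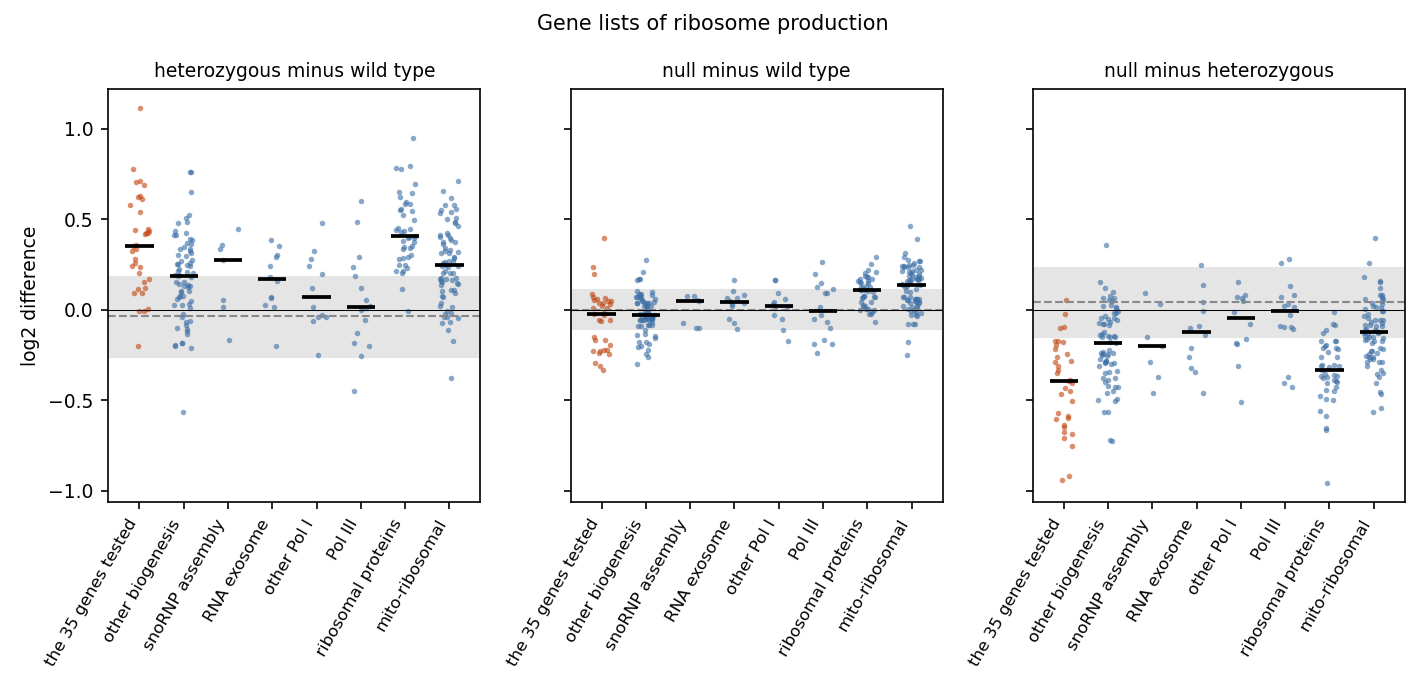
Log2 differences of the genes in each list (y axis; points are genes, black bars medians, the grey band and dashed line the middle 50% and the median of all genes) for heterozygous minus wild type, null minus wild type and null minus heterozygous. The ribosome biogenesis genes had a median of 0.35 in heterozygous minus wild type, the cytosolic ribosomal proteins 0.41 and the mitochondrial ribosomal proteins 0.25.

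Other genes of ribosome assembly had a smaller median difference. As background for the counts in this and the later lists, 4.2% of all genes rose and 5.95% fell in heterozygous minus wild type. In null minus heterozygous, 5% of all genes rose and 3.96% fell. Among 71 further small- and large-subunit factors, 56 lay above 0 in heterozygous minus wild type with a median of 0.18, where 1 rose and 1 fell. Mybbp1a, a nucleolar protein that binds Myb, rose by 0.65 (adjusted p = 0.0305), and Tsr2, an escort of a ribosomal protein, fell by 0.56 (adjusted p = 0.0266). The genes of next smallest p in the small- and large-subunit lists were Pno1 at 0.76, Ltv1 at 0.48, Rsl1d1 at 0.52 and Lyar at 0.76, with adjusted p between 0.054 and 0.0829. In null minus heterozygous, 1 of the 71 fell, with a median of -0.18. A further 12 genes of RNA polymerase I transcription had 0 calls by limma and a median of 0.07. Those of smallest p were Taf1d at 0.48 (adjusted p = 0.1), Polr2f at 0.28 and Polr1d at 0.33. The 7 assembly chaperones of small nucleolar ribonucleoproteins had 0 calls and a median of 0.28, and those of smallest p were Ruvbl2 at 0.45, Ruvbl1 at 0.36 and Nufip1 at 0.28. The 12 genes of the RNA exosome, which trims precursors, had 0 calls and a median of 0.17, and those of smallest p were Exosc9 at 0.38, Exosc1 at 0.30 and Exosc2 at 0.29.

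Of 16 genes of RNA polymerase III transcription, which makes the small ribosomal RNA of the large subunit and transfer RNA, 2 rose and 0 fell. Gtf3a, the factor that binds the gene of that RNA, rose by 0.49 (adjusted p = 0.0298), and the subunit gene Polr3k rose by 0.60 (adjusted p = 0.0396). The next was Gtf3c4 at -0.45, and the list had a median of 0.02.

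Cytosolic ribosomal protein genes, whose products the assembly factors load, were mostly higher in heterozygous cells. Of 43 tested of 80 listed, 16 rose and 0 fell in heterozygous minus wild type, or 37.2%, and 42 lay above 0 with a median of 0.41. Rpl41 rose by 0.79 (adjusted p = 0.0117), Rps19 by 0.78 (adjusted p = 0.0132) and Rpsa by 0.64 (adjusted p = 0.0162). In null minus wild type 0 passed the test by limma, 1 had an unadjusted p under 0.05 and the median was 0.11, and in null minus heterozygous 9 fell with a median of -0.33. Both heterozygous arrays exceeded the other 5 in 86% of these genes. Ribosomal protein genes have many near-identical copies, so their probe sets may measure more than 1 gene. Mitochondrial ribosomal protein genes, which encode the ribosome inside mitochondria, had 7 rises and 0 falls among 74 tested in heterozygous minus wild type. Their median was 0.25, and 4.2% of all genes rose in that comparison. Those of smallest p were Mrpl20 at 0.71 (adjusted p = 0.0117), Mrpl34 at 0.66 and Mrpl33 at 0.62, and 3 fell in null minus heterozygous. The difference between these lists and the ribosome biogenesis genes was not tested.

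**Figure D4:**
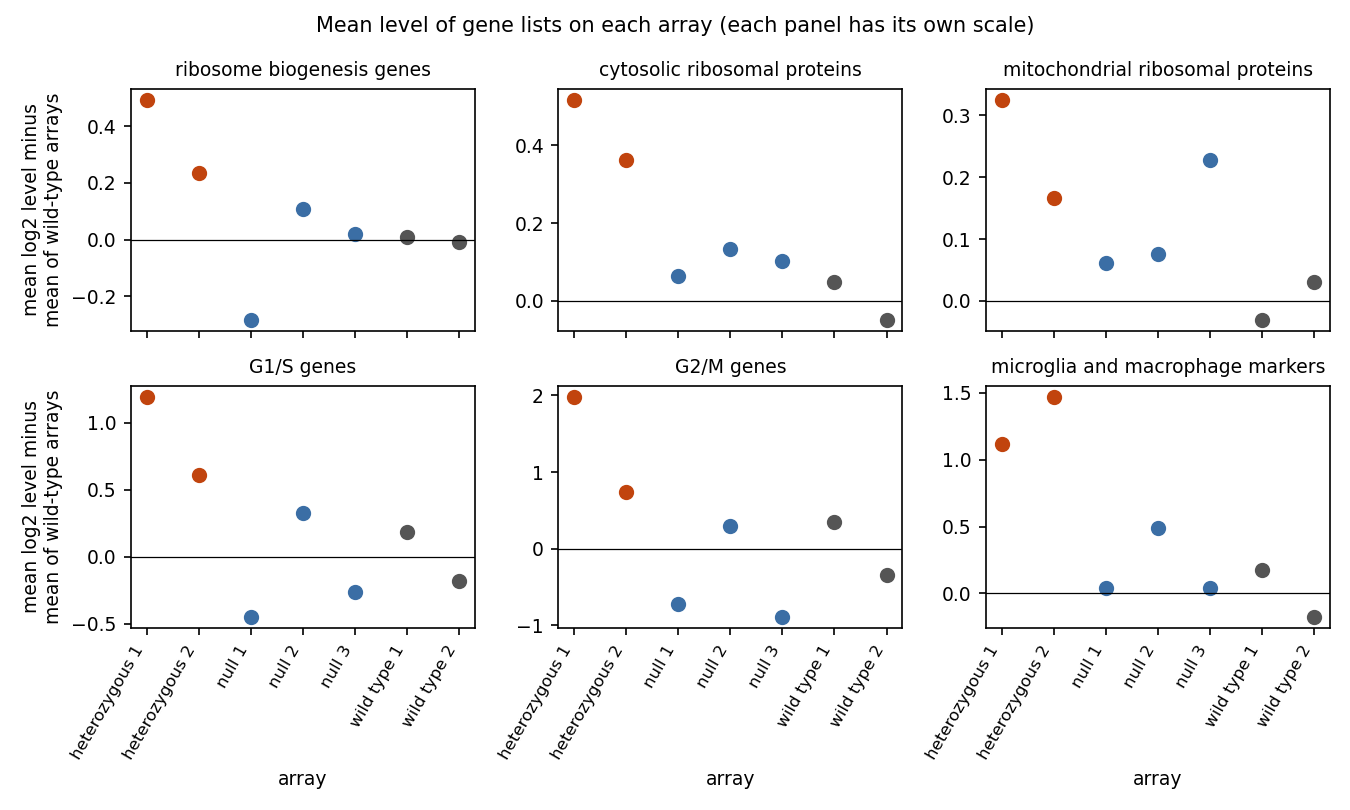
Mean log2 value of each gene list on each array, minus the mean of the wild-type arrays (y axis), with 1 panel per list, 1 point per array and a scale of its own in each panel. The ribosome biogenesis genes stood at 0.49 and 0.23 on the heterozygous arrays, and the G2/M genes at 1.98 and 0.74 on the same arrays.

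Cell cycle genes and markers of another cell type also had higher medians in heterozygous than in wild-type cells. Of all genes, 4.2% rose in heterozygous minus wild type and 3.96% fell in null minus heterozygous. Of 19 G1/S genes, 4 rose in heterozygous minus wild type with a median of 0.85, and 7 fell in null minus heterozygous. The log2 of their summed linear level ran over 13.89 to 14.39 on heterozygous, 12.91 to 13.56 on null and 13.10 to 13.47 on wild-type arrays. Of 19 G2/M genes, 1 rose with a median of 1.37, and 7 fell in null minus heterozygous with a median of -1.87. The log2 of their sums was 13.16 to 14.32 on heterozygous, 11.38 to 12.64 on null and 11.94 to 12.67 on wild-type arrays. Mki67, the proliferation marker, had a difference of 1.45 in heterozygous minus wild type (adjusted p = 0.129) and fell in null against heterozygous cells by 2.11 (adjusted p = 0.0456). As with the ribosome biogenesis genes, the G1/S and G2/M means were higher on heterozygous replicate 1 than on replicate 2. Relative to the wild-type mean, the null arrays stood at -0.45, 0.33 and -0.26 for G1/S and -0.72, 0.29 and -0.89 for G2/M genes. Those of the ribosome biogenesis genes were -0.28, 0.11 and 0.02. The wild-type arrays stood at 0.18 and -0.18 for G1/S, 0.34 and -0.34 for G2/M and 0.01 and -0.01 for ribosome biogenesis genes.

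Microglia and macrophage markers were also higher in heterozygous cells, in another order of arrays. Of 24 listed, 19 were tested and 15 rose in heterozygous minus wild type with a median of 1.33, and 10 fell in null minus heterozygous. Ptprc, the pan-leukocyte marker, rose by 1.40 and Csf1r, the macrophage growth factor receptor, by 1.29. The log2 of the summed linear level of the 22 markers with a probe set was 11.46 to 11.82 on heterozygous, 10.18 to 10.77 on null and 9.96 to 10.39 on wild-type arrays. It was higher on heterozygous replicate 2 than on replicate 1, the reverse of the ribosome biogenesis genes. Of 10 tested oligodendrocyte precursor and glioma markers, 1 rose and 4 fell, Olig2 by 0.67 and Pdgfra by 0.65 among them. The log2 of their sums was 15.09 to 15.37 on heterozygous, 15.56 to 15.66 on null and 15.73 to 15.75 on wild-type arrays. In heterozygous minus wild type, 0 of 3 lymphocyte and 0 of 7 oligodendrocyte markers passed the test, 1 of 9 endothelium and pericyte markers rose and 2 of 7 neuron markers fell. Of 16 genes of the stress of tissue dissociation, 3 rose. The part of the cell cycle genes and of these markers in the ribosome biogenesis values was not tested.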

How the data were processed

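RNA of sorted glioma cells was measured on 7 Affymetrix arrays from 75 ng of total RNA, per the labels' protocols. The table the authors deposited is in log2 units, made with RMA and Partek 6.6 per the submitters' processing notes. RMA sets arrays to a common distribution. Of 22626 probe sets other than controls, 20380 named 1 gene, 691 several and 1555 none here, by the platform annotation checked against RefSeq. Each of 12393 genes was represented by its brightest probe set and tested if above the array's 30th percentile on at least 2 arrays, which left 9243 genes.

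With limma 3.58.1 (R 4.3.3), 1 model with a mean per genotype took in all 7 arrays, with 4 residual degrees of freedom, two-sided moderated tests and Benjamini-Hochberg adjustment over all genes at 0.05. The fit was tested on simulated data. The number of arrays limits the precision. Promoter letters were searched with Python 3.11.15.

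The 38 members and the gene lists were chosen with earlier results of these data known. Values on every array are given for the 3 members of smallest p per role class in heterozygous against wild type and for the 3 of smallest p in each null comparison. For each further list the 3 genes of smallest p are named, with Myc, Mycn and the defining markers. Alternatives were other filters, probe set summaries, recentring, moderation, a 3' minus 5' covariate, a replicate block, fits of only the groups compared and fits without single arrays or without the 2 arrays with Xist and Y-linked transcripts.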

Additional observations from a re-analysis of the deposited data

How the results depend on the processing

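Over 18 alternatives the median difference of the 35 ribosome biogenesis genes ran from 0.26 to 0.52 in heterozygous minus wild type and from -0.57 to -0.17 in null minus heterozygous. In null minus wild type it ran from -0.10 to 0.073 and was above 0 in 4 of them. For the mean of heterozygous and null minus wild type it ran from 0.11 to 0.24 over 17 alternatives. Counts of calls did not hold. Counts are given for heterozygous minus wild type and then null minus heterozygous. Other lists here means the further lists of ribosome production and the Myc network, with 245 genes tested. The cell cycle, cell type, glioma and dissociation lists were not counted in these alternatives. With 1 array left out at a time, the ribosome biogenesis genes called ran from 0 to 6 and from 0 to 6, all genes from 33 to 802 and from 90 to 732, and the other lists together from 1 to 27 and from 1 to 15. A lone array left in a group was assumed to vary like the other groups. For null minus wild type, all genes called ran from 0 to 1, and for the mean of heterozygous and null minus wild type from 0 to 22. Without the 2 arrays with Xist and Y-linked transcripts, 0 of these genes, 0 of all genes and 0 of other lists were called in both comparisons, and 0 genes for the mean of the deficient groups. With the 3' minus 5' covariate, 1 of them was called in heterozygous minus wild type, with 372 and 471 genes, 8 and 6 in other lists and 3 genes for the deficient mean. With trend and robust moderation, 6 and 7 of them were called, 45 and 31 genes of other lists, and 55 genes, 4 of them in other lists, for the deficient mean. With no moderation, 0 and 0 of them, 97 and 2 of all genes, and 7 and 0 in other lists were called, 1 gene in null minus wild type, and 10 genes, 1 of them in other lists, for the deficient mean. With only the groups compared, 0 and 1 of them, 172 and 355 of all genes and 1 and 5 in other lists were called. Without a filter, 2 of them and 10 genes of other lists were called in null minus heterozygous. Averaging probe sets gave 1 gene in null minus wild type, and leaving out shared probe sets gave 14 and 5 in other lists. Recentred arrays and a filter at the 50th percentile kept all these counts within 1.5 times. In heterozygous minus wild type Ddx18 turned to -0.037 and Rrp1b to -0.060 without heterozygous replicate 1, with or without null replicate 1. In the same comparison, leaving out 1 array at a time gave -0.037 to 0.28 for Ddx18 and -0.060 to 0.25 for Rrp1b. In null minus heterozygous Ddx18 ran from -0.25 to 0.060, with 0.060 without heterozygous replicate 1 and 0.038 without null replicate 1, and was 0.19 without both. The causes were not tested. The promoter share of 18.2% for CACGTG was 42.4% with CACGCG counted, 6.06% before the start only and 39.4% for CGGAAGT or ACTTCCG, which was chosen after seeing the data.

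Correlations of same-numbered deviations from the group means ran from -0.414 to 0.111. They cannot settle whether the replicate numbers pair the arrays, since the deviations in a group of 2 arrays mirror each other. With the replicate block, 0 and 0 ribosome biogenesis genes, 217 and 25 of all genes and 1 and 1 genes of other lists were called, and 0 genes for the deficient mean.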

Other observations

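The array's own control probe sets include the 3' part of 18S ribosomal RNA, the end product of the small-subunit route. They read 12.42 and 12.48 on the log2 scale on heterozygous, 12.46, 12.37 and 11.72 on null and 11.93 and 12.38 on wild-type arrays. The labelling kit works from the 3' end of transcripts with a poly-A tail, so these values are not a measure of ribosome content. On this 3' probe set both heterozygous arrays lay above both wild-type arrays, as in 26.2% of all genes, and the null arrays overlapped both other groups. The middle part read 13.01 and 13.04 on heterozygous, 13.09, 12.85 and 12.42 on null and 12.66 and 12.94 on wild-type arrays. The 5' part read 13.27 and 13.23 on heterozygous, 13.30, 13.13 and 12.67 on null and 12.99 and 13.27 on wild-type arrays. Heterozygous and wild-type arrays overlapped on the 5' part, and null replicate 1 was the highest array on both parts.

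Among the 31 further probe sets of the ribosome biogenesis genes, 25 lay above 0 in heterozygous minus wild type and 27 below 0 in null minus heterozygous. In 5 genes, Ddx18, Nip7, Nop16, Pes1 and Wdr75, a further probe set had the opposite sign to the brightest in heterozygous minus wild type.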
